A study of Rattus norvegicus with 24 samples.

Results

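The genes described here code for the liver enzymes that build phosphatidylcholine and exchange its fatty acids. There were 10 of them, chosen by symbol in the deposited expression table: the choline kinases Chka and Chkb, the CTP-dependent transferases Pcyt1a and Pcyt2, the methyltransferase Pemt, the cholinephosphotransferase Chpt1 and the lysophosphatidylcholine acyltransferases Lpcat1, Lpcat2, Lpcat3 and Lpcat4. All 10 had a single probe set each among the 22904 transcripts with a gene symbol, of 23188 transcripts in all. The clock genes Nr1d1 and Arntl were read beside them, because the relation of Chka to the clock of each rat was part of the question.

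Livers came from 24 male Zucker rats in groups of 6, all fed the same basal diet for 4 weeks from an age of 25 weeks. The groups were OE, homozygous (fa/fa) obese rats given ecdysterone at 0.5 g per kg of feed, OC, fa/fa obese rats without it, LE, heterozygous (fa/+) lean rats given the same amount, and LC, fa/+ lean rats without it. Lean rats thus also carried 1 copy of the leptin receptor mutation fa, and ecdysterone is an insect moulting hormone that is also found in plants. Rats were housed in pairs and killed in the non-fasted state; which rats shared a cage and the hour at which each was killed are not given in the sources used here. Total RNA of whole liver was hybridised to Clariom S arrays, a 1-colour microarray, and values are log2 signals, so that a difference of 1 means a doubling. With whole liver, fewer cells of a type and less RNA per cell cannot be told apart.

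In the liver, most phosphatidylcholine is made from choline: a choline kinase adds a phosphate, a transferase that uses CTP activates the product as CDP-choline, and a cholinephosphotransferase joins it to diacylglycerol. A second route, particular to the hepatocyte in its extent, methylates phosphatidylethanolamine to phosphatidylcholine through Pemt. The acyltransferases then exchange fatty acids on the finished lipid, which coats lipoproteins and lipid droplets and is secreted into bile. Arntl, also called Bmal1, is the activator of the circadian clock, and Nr1d1, which codes for the receptor REV-ERB alpha, represses Arntl, so that their transcripts peak at nearly opposite times of day.

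The members whose levels went with that of Arntl in these livers were Chka and Pcyt2, and for this reason their promoters are shown with that of Arntl. Each stretch runs from 250 bases before to 50 bases after the transcript start of RefSeq (build GRCr8), 5′ to 3′ on the strand of the gene. Capitals mark CCAAT (or ATTGG, its reverse complement) and GGGCGG (or CCGCCC) in Chka and Pcyt2, and AGGTCA, the core letters of the sites that REV-ERB and ROR receptors bind, in Arntl.
Chka (chr1:210505865-210506164, + strand): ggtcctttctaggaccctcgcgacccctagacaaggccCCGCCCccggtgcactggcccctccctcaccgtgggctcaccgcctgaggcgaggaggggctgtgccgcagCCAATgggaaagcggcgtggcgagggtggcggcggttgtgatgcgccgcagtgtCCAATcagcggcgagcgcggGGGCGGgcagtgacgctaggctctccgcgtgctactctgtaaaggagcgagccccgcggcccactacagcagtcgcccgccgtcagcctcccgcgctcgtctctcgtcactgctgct
Pcyt2 (chr10:106394419-106394718, - strand): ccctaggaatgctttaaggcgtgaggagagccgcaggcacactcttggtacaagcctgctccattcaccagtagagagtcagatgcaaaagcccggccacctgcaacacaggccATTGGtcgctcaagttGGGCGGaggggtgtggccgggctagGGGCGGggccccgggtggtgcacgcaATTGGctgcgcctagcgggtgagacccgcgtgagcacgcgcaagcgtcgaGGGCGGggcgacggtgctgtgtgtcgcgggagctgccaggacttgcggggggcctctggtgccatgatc
Arntl (chr1:176766078-176766377, + strand): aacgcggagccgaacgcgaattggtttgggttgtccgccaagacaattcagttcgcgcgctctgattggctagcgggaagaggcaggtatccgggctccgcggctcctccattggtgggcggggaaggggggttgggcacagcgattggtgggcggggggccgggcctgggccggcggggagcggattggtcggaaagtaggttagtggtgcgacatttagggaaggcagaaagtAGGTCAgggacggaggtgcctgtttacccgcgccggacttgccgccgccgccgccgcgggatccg
The Chka stretch held 2 CCAAT and 2 GGGCGG matches and that of Pcyt2 held 2 and 3. These words are common: over both strands, 37.5% of 33469 rat promoters of the same length held CCAAT and 33.1% held GGGCGG. The clock motifs searched were the E-box CACGTG (6.42% of promoters), its variant CACGTT (4.83%), the D-box TTANGTAA (2.24%) and AGGTCA (16.2%), and no 2 marked matches overlapped. None of these clock motifs lay in the Chka or Pcyt2 stretch, while Arntl held 1 AGGTCA, 15 to 10 bases before its start. Of the 10 members, Pemt was the only other to hold one of them, an AGGTCA.

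Chka, which starts the choline route by phosphorylating choline, varied from rat to rat far more than the other members. In OE rats its log2 signal was 13.27, 13.64, 11.77, 12.08, 10.41 and 10.64. In OC rats it was 12.13, 11.92, 10.22, 11.25, 13.49 and 14.70. In LE rats it was 12.16, 12.40, 10.69, 10.62, 12.99 and 13.52, and in LC rats 12.94, 13.78, 11.83, 9.46, 9.09 and 8.78. All 4 groups overlapped, and the highest rat (OC) lay 5.92 above the lowest (LC), a 60.4-fold range. The SD within groups was 1.61, the 15th largest of all 23188 transcripts, whose median SD was 0.32. The other 9 members had SDs between 0.29 and 0.49.

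**Figure D1:**
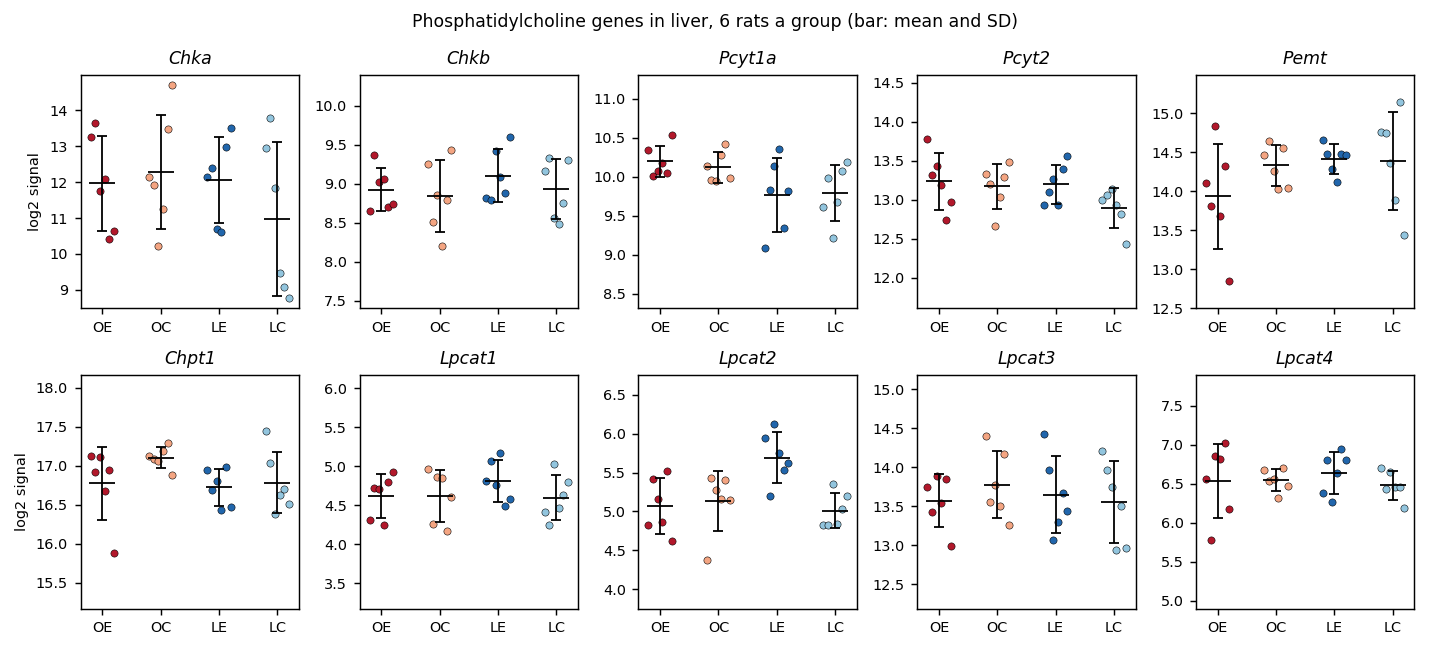
Log2 signal (y axis) of the 10 phosphatidylcholine genes in OE, OC, LE and LC livers, with 1 point a rat (6 a group, in replicate order) and bars for mean and SD. Each axis spans at least 3 log2 units. Chka spread over several log2 units in every group, and the groups of every gene overlapped.

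As measured, Chka averaged 11.97 ± 1.32 in OE, 12.28 ± 1.60 in OC, 12.06 ± 1.19 in LE and 10.98 ± 2.15 in LC livers (SD, n = 6 each). In OC vs. LC it differed by 1.30 on the log2 scale (limma, SE 0.78, adjusted p = 0.528) and in OE vs. LE by −0.10 (SE 0.78, adjusted p = 0.983), and neither value was larger than the spread between rats. Leaving out single rats gave OC vs. LC values between 0.82 (without OC replicate 18) and 1.86. Chkb, the second choline kinase, averaged 8.92 ± 0.28 in OE, 8.84 ± 0.46 in OC, 9.10 ± 0.34 in LE and 8.93 ± 0.38 in LC livers. Its log2 fold change was −0.09 in OC vs. LC and −0.18 in OE vs. LE (SE 0.20 each), within the spread between rats.

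Among the 6 rats of a group, the level of Chka followed that of Arntl. Arntl read 9.26, 9.63, 8.12, 7.58, 6.11 and 6.13 in OE rats, in the replicate order used for Chka. It read 9.01, 8.18, 6.66, 8.06, 9.34 and 9.79 in OC rats, 9.36, 9.67, 8.15, 7.42, 10.22 and 10.44 in LE rats, and 10.35, 10.59, 8.90, 7.62, 7.18 and 5.93 in LC rats. The rats with much Arntl were those with much Chka: the rank order of both genes was the same in OC, LE and LC rats (Spearman rho 1.00 in each, exact permutation p = 0.00278, 2-sided, n = 6) and nearly so in OE rats (rho 0.94, exact permutation p = 0.0167). Pearson's r was 0.98 in OE, 0.94 in OC, 0.98 in LE and 0.97 in LC rats. These and the later p-values treat the rats of a group as independent, and which rats shared a cage is not given. Many rats with neighbouring replicate numbers had similar Arntl. Examples are LE replicates 7 and 8 (9.36 and 9.67) and 11 and 12 (10.22 and 10.44), and LC replicates 1 and 2 (10.35 and 10.59). In OE they are replicates 19 and 20 (9.26 and 9.63) and 23 and 24 (6.11 and 6.13). Others differed more, such as OC replicates 15 and 16 (6.66 and 8.06) and LC replicates 3 and 4 (8.90 and 7.62). If neighbours were not independent, these p-values would be too small.

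Over all 24 rats, with the group means removed, r between Chka and Arntl was 0.96 and rho 0.96 (permutation within groups, p = 1e-05 each, the smallest that 100000 permutations can give). It stayed at 0.95 without the 2 rats farthest from the median of Arntl (LC replicate 6 and OE replicate 23). In limma, with Arntl as a numeric term beside the 4 group means, Chka changed by 1.06 log2 units per log2 unit of Arntl (SE 0.07, 95% CI 0.93 to 1.20, adjusted p = 4.65e-11 over 23187 transcripts). By p-value this slope ranked 1st of all transcripts. Of the transcripts tested, 1.2% had a slope on Arntl past an adjusted p of 0.05, and 2 of the 10 members did, Chka and Pcyt2. Below an unadjusted p of 0.05 in limma were 6 members, against 11.3% of all transcripts. The further ones were Lpcat3 (slope 0.15), Pemt (0.14), Chpt1 (0.12) and Lpcat1 (−0.10). The relation was named for Chka with earlier results of these data known.

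**Figure D2:**
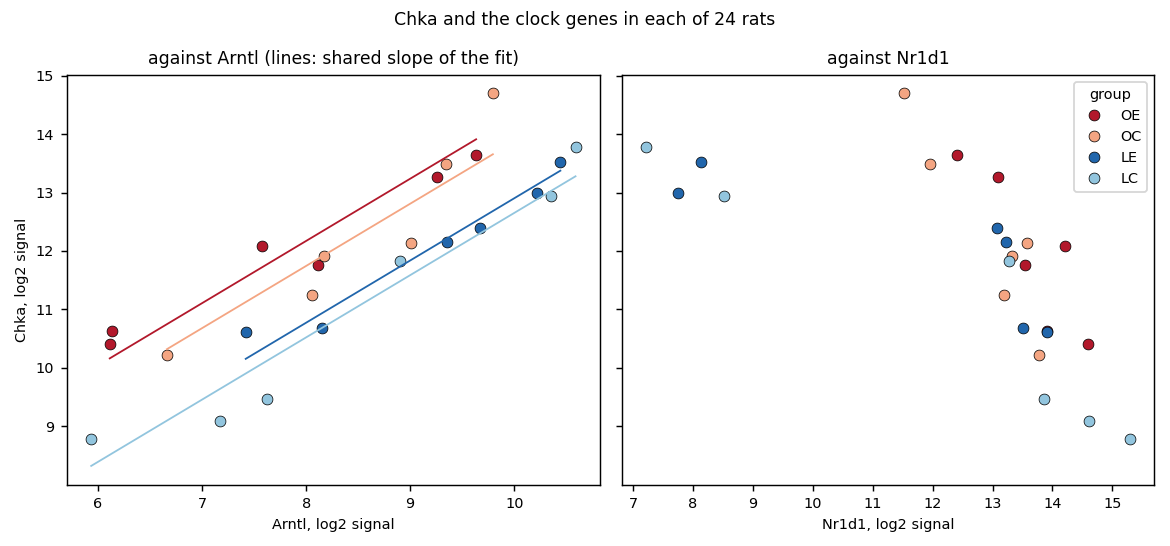
Log2 signal of Chka (y axis) against that of Arntl (left) and Nr1d1 (right) in each of 24 rats, coloured by group. The lines in the left panel have the shared slope of 1.06, and those of the obese groups OE and OC lie above those of the lean groups LE and LC.

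Nr1d1 divided the rats into separate sets: in 4 lean rats (LE replicates 11 and 12, LC replicates 1 and 2) it lay between 7.21 and 8.51, and in the other 20 between 11.53 and 15.30. These 4 rats also had the highest Arntl of all, 10.22 to 10.59 against at most 9.79 in the others, and their Chka was between 12.94 and 13.78. In the 20 other rats, with group means removed, Chka fell as Nr1d1 rose (r = −0.89, permutation p = 2e-05, and rho −0.79, permutation p = 0.00035). The correlation with Arntl in the same 20 rats was 0.93. The limma slope of Chka on Nr1d1 over all 24 rats was −0.56 (SE 0.08, adjusted p = 0.000313), with 0.694% of transcripts called, and Chka was the 1 member past the threshold. By genotype the slope was −1.53 (SE 0.24) in obese and −0.49 (SE 0.07) in lean rats. The difference was −1.04 (SE 0.25, limma unadjusted p = 0.000296, adjusted p = 0.325 over all transcripts), and all 4 rats with low Nr1d1 were lean. On Arntl the slope was 1.03 (SE 0.11) in obese and 1.09 (SE 0.09) in lean rats, a difference of −0.06 (SE 0.14, adjusted p = 0.959).

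In a fit that held Arntl equal, the fitted level of Chka was higher in obese livers on both diets. The fit with Arntl was chosen after the values had been seen. With Nr1d1 or Npas2 held equal instead, the OE vs. LE value did not pass the threshold. With the slope of 1.06, each rat's Chka was moved to the mean Arntl level of 8.49, which gave 12.45, 12.42, 12.16, 13.05, 12.93 and 13.14 in OE rats. The moved values were 11.58, 12.25, 12.17, 11.71, 12.58 and 13.31 in OC rats. They were 11.23, 11.14, 11.05, 11.76, 11.15 and 11.44 in LE rats and 10.96, 11.54, 11.39, 10.38, 10.48 and 11.50 in LC rats. Of the 12 obese rats, 10 lay above every lean rat, and 11 of the 12 lean rats lay below every obese rat; the exceptions were OC replicates 13 and 16 and LE replicate 10.

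**Figure D3:**
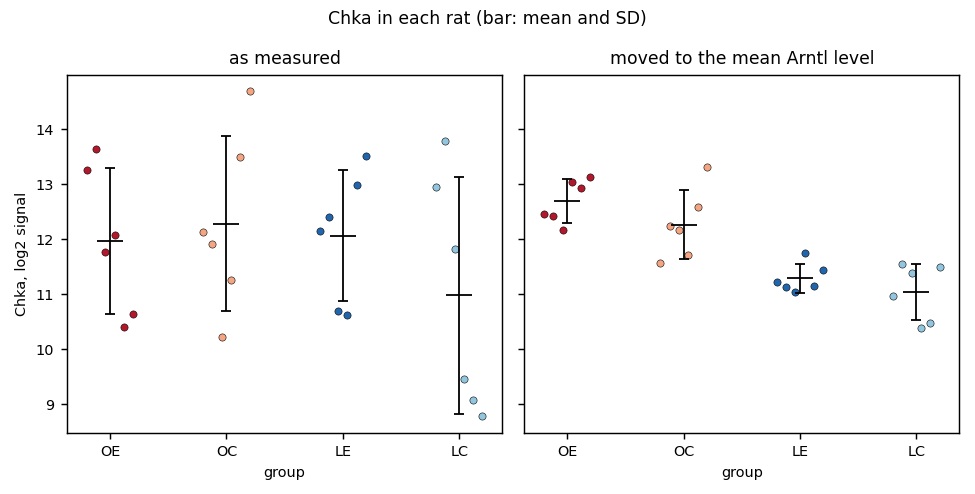
Log2 signal of Chka (y axis) in OE, OC, LE and LC livers as measured (left) and moved to the mean Arntl level of 8.49 (right), with 1 point a rat and bars for mean and SD. The groups overlap widely on the left, and on the right the means are 12.69 and 12.26 in OE and OC against 11.29 and 11.04 in LE and LC.

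With Arntl as a covariate in limma, the log2 fold change of Chka was 1.22 in OC vs. LC (SE 0.25, adjusted p = 0.00364) and 1.398 in OE vs. LE (SE 0.27, adjusted p = 0.00333). Pooled over both diets, Chka as measured differed by 0.60 (SE 0.56, 1.52-fold, adjusted p = 0.649), and with Arntl in the fit by 1.31 (SE 0.18, adjusted p = 1.43e-05), a fitted level 2.48-fold higher in obese livers at equal Arntl. These p-values do not allow for the choice of Arntl with the values known. Chka was the 1 member past the threshold in each of these fits, in which 2.93%, 1.61% and 6.32% of all transcripts were called. Leaving out each rat in turn kept the pooled value between 1.17 and 1.39 and past the threshold, and without the 4 rats low in Nr1d1 it was 1.37 (adjusted p = 8.29e-05). With Nr1d1 in place of Arntl the pooled value was 1.39 (SE 0.36, adjusted p = 0.0152, 5.91% of transcripts called) and that of OC vs. LC was 1.74 (SE 0.48, adjusted p = 0.046, 2.86% called). In OE vs. LE with Nr1d1 it was 1.04 (SE 0.51, adjusted p = 0.442). The Nr1d1 fits used 1 slope for both genotypes, although the slopes by genotype were −1.53 in obese and −0.49 in lean rats. No obese rat had Nr1d1 as low as the 4 lean rats, so these values rest on that shared slope.

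The value depended on which clock gene was held equal. Npas2 and Dbp were taken for the closeness of their pattern to that of Chka on the same arrays, so their values are a description only. Arntl was itself the transcript most like Chka (r = 0.96). The pooled value was 1.16 with Npas2 and 1.60 with Dbp. In OE vs. LE the value was 0.73 with Npas2 (limma adjusted p = 0.366) and 1.39 with Dbp (limma adjusted p = 0.00215). The clock genes themselves did not pass the test between the genotypes. Pooled over both diets, the log2 difference was −0.66 for Arntl (SE 0.50, adjusted p = 0.544), 1.397 for Nr1d1 (SE 0.79, adjusted p = 0.373), 1.58 for Dbp (SE 0.84, adjusted p = 0.335) and 0.63 for Per2 (SE 0.25, adjusted p = 0.151).

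The differences of these clock genes were larger in OE vs. LE, also without passing the test. Arntl differed by −1.41 (SE 0.71, adjusted p = 0.424), Nr1d1 by 2.03 (SE 1.12, adjusted p = 0.482), Dbp by 2.36 (SE 1.19, adjusted p = 0.424) and Per2 by 0.77 (SE 0.35, adjusted p = 0.355). Per1, named here after its values were seen, differed by 1.25 (SE 0.39, unadjusted p = 0.00335, adjusted p = 0.1). As measured, Chka differed by −0.10 in OE vs. LE, so that its value of 1.398 at equal Arntl came from the covariate and was about the size of the Arntl difference between these groups. Ecdysterone did not move Chka past the threshold at an equal Arntl level either, with 0.25 in LE vs. LC (SE 0.26) and 0.43 in OE vs. OC (SE 0.26).

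Over the 24 arrays with group means removed, the transcripts most like Chka were Arntl (r = 0.96), the Clock relative Npas2 (0.92), the galectin-like gene Lgalsl (0.89), LOC100364958 (0.89) and the mitochondrial protease subunit Clpx (0.89). The most opposite were the clock output factor Dbp (r = −0.96), the cytochrome P450 reductase Por (−0.93), the Dbp relative Tef (−0.90), LOC102549059 (−0.90) and Gcnt2 (−0.90). These values describe the same 24 arrays and carry no test. Of 17 further clock genes measured, 4 rose and 8 fell with Arntl in limma, where 1.2% of all transcripts passed. The genes were listed as clock genes, so the count is a description. Npas2 was among the first (slope 0.88, SE 0.06) and Dbp among the second (slope −1.60, SE 0.11).

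Pcyt1a makes CDP-choline, the step that limits the choline route. It ranged from 10.01 to 10.53 (median 10.12) in OE, from 9.94 to 10.42 (median 10.06) in OC, from 9.09 to 10.35 (median 9.82) in LE and from 9.21 to 10.20 (median 9.83) in LC livers. The groups overlapped, but no obese rat lay below 9.94, while 4 LE and 3 LC rats did. The log2 fold change was 0.33 in OC vs. LC (SE 0.19, adjusted p = 0.49), 0.44 in OE vs. LE (SE 0.19, adjusted p = 0.309) and 0.38 pooled over both diets (SE 0.13, adjusted p = 0.0853). Leaving out single rats gave pooled values between 0.32 and 0.44. The limma adjusted p passed the threshold only without LE replicate 10 (0.0344) and did not in the other 23 fits. Pcyt1a did not follow Arntl past the threshold (slope −0.08, SE 0.05, adjusted p = 0.555).

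Pcyt2, which makes CDP-ethanolamine and so feeds the substrate of Pemt, ranged from 12.73 to 13.78 (median 13.25) in OE, from 12.66 to 13.48 (median 13.25) in OC, from 12.93 to 13.55 (median 13.18) in LE and from 12.43 to 13.13 (median 12.96) in LC livers. The groups overlapped, and its log2 fold change was 0.28 in OC vs. LC (SE 0.17, adjusted p = 0.547) and 0.04 in OE vs. LE (SE 0.17, adjusted p = 0.963). Like Chka it rose with Arntl, though on a smaller scale: the slope was 0.16 log2 units per log2 unit (SE 0.04, adjusted p = 0.0137). The group-centred r over 24 rats was 0.80 (permutation p = 3e-05) and rho 0.81 (permutation p = 2e-05), and r was 0.73 without the same 2 farthest rats. Within groups r was 0.85 in OE, 0.97 in OC, 0.64 in LE and 0.82 in LC rats, with exact permutation p-values of 0.0375, 0.00278, 0.19 and 0.0264 (n = 6 each). Without LC replicate 6 the adjusted p of the slope was 0.051, and without the 4 rats low in Nr1d1 it was 0.0542. With Nr1d1 the slope was −0.07 (SE 0.03, adjusted p = 0.306) and the group-centred r −0.55 (permutation p = 0.00098). Correlations were computed for 20 pairs of a member and a clock gene. Adjusted over these by Benjamini-Hochberg, the permutation p of r was under 0.05 for Chka and Pcyt2 with either clock gene and for Lpcat1 with Nr1d1.

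**Figure D4:**
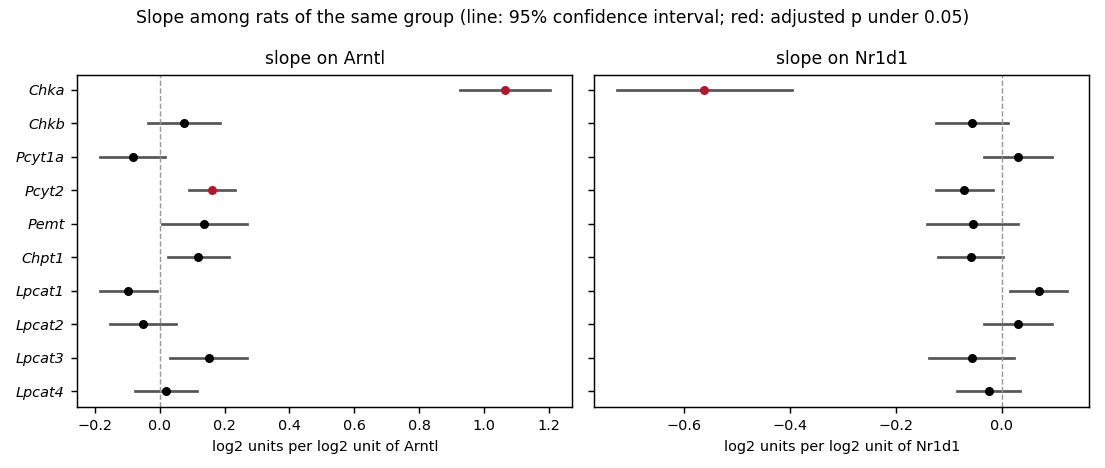
Slope of each gene (rows) on Arntl (left) and Nr1d1 (right) among rats of the same group, in log2 units per log2 unit (x axis), with 95% confidence intervals from limma. Red points have an adjusted p under 0.05: Chka at 1.06 and Pcyt2 at 0.16 on Arntl, and Chka at −0.56 on Nr1d1.

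Chpt1 catalyses the last step of the choline route. It ranged from 15.89 to 17.12 (median 16.93) in OE, from 16.88 to 17.29 (median 17.11) in OC, from 16.44 to 16.99 (median 16.75) in LE and from 16.39 to 17.45 (median 16.66) in LC livers. 5 of the 6 OC rats stood above every LE rat in the plot of values by group, but the highest LC rat exceeded them all. The log2 fold change was 0.32 in OC vs. LC (SE 0.19, adjusted p = 0.512), 0.05 in OE vs. LE and −0.33 in OE vs. OC (SE 0.19, adjusted p = 0.889).

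Pemt, the enzyme of the methylation route, ranged from 12.85 to 14.83 (median 13.96) in OE, from 14.03 to 14.64 (median 14.37) in OC, from 14.12 to 14.66 (median 14.47) in LE and from 13.44 to 15.15 (median 14.55) in LC livers. OE and LC rats were spread more widely than OC and LE rats, and 4 of the 6 OE rats lay below every LE rat. The log2 fold change was −0.05 in OC vs. LC (SE 0.26, adjusted p = 0.971) and −0.48 in OE vs. LE (SE 0.26, adjusted p = 0.461). Its slope on Arntl, 0.14 (SE 0.06), had an adjusted p of 0.408.

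Of the acyltransferases, Lpcat3, which in liver places polyunsaturated fatty acids into phosphatidylcholine, ranged from 12.99 to 13.89 (median 13.64) in OE, from 13.26 to 14.40 (median 13.67) in OC, from 13.07 to 14.43 (median 13.56) in LE and from 12.94 to 14.21 (median 13.62) in LC livers. The ranges almost coincided, with log2 fold changes of 0.22 in OC vs. LC and −0.07 in OE vs. LE (SE 0.24 each). Lpcat4 ranged from 5.78 to 7.02 in OE, from 6.32 to 6.70 in OC, from 6.27 to 6.95 in LE and from 6.19 to 6.70 in LC livers, and its log2 fold changes in these comparisons were 0.06 and −0.11 (SE 0.17 each). Lpcat1 gave dim signals between 4.17 and 5.17 in all livers, with −0.19 in OE vs. LE and 0.03 in OC vs. LC. Its group-centred r with Nr1d1 was 0.55 (permutation p = 0.00479, adjusted p = 0.019 over 20 pairs). Without the 4 rats low in Nr1d1, r was 0.22 (permutation p = 0.415). The limma slope of Lpcat1 on Nr1d1 was 0.07 (SE 0.03, adjusted p = 0.313).

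Lpcat2, an acyltransferase known from macrophages and other inflammatory cells, was the member with the lowest p-value between the lean groups, although the difference of Chka was larger (1.08, SE 0.78, unadjusted p = 0.179). It read 4.83, 5.42, 5.16, 4.86, 5.52 and 4.62 in OE rats. It read 4.38, 5.43, 5.27, 5.16, 5.40 and 5.14 in OC, 5.94, 5.20, 6.12, 5.74, 5.54 and 5.62 in LE and 4.82, 4.82, 5.36, 4.84, 5.04 and 5.20 in LC rats. 5 of the 6 LE rats lay above every LC rat, and the other groups overlapped each other. The log2 fold change was 0.68 in LE vs. LC (SE 0.19, unadjusted p = 0.00102 and adjusted p = 1 from limma) and −0.62 in OE vs. LE (SE 0.19, adjusted p = 0.0785). The interaction of genotype and ecdysterone was −0.74 (SE 0.26, unadjusted p = 0.00841), again with an adjusted p of 1.

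The OE vs. LE value of Lpcat2 had an adjusted p of 0.0443 without LE replicate 8, of 0.0446 without OC replicate 13 and of 0.0465 without OE replicate 23. Leaving out any other single rat did not take it past the threshold, and the value ranged from −0.72 to −0.54. The signals of Lpcat2 lay in the range of those of 1340 smell and taste receptor genes, whose mean signals had a median of 4.82 and a 90th percentile of 5.95. The mean log2 signal of 10 macrophage markers was 8.13 to 9.67 in OE, 8.64 to 9.69 in OC, 8.85 to 9.31 in LE and 8.95 to 9.33 in LC livers. In LE vs. LC 0 of the 10 passed the test, with 0% of all transcripts, and in OE vs. LE 0 passed, with 2.11%. In OC vs. LC (2.59% of transcripts) and pooled over both diets (6.52%) 1 of these markers passed, Lgals3, which was higher in obese livers. The part of macrophages in the Lpcat2 values was not tested.

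**Figure D5:**
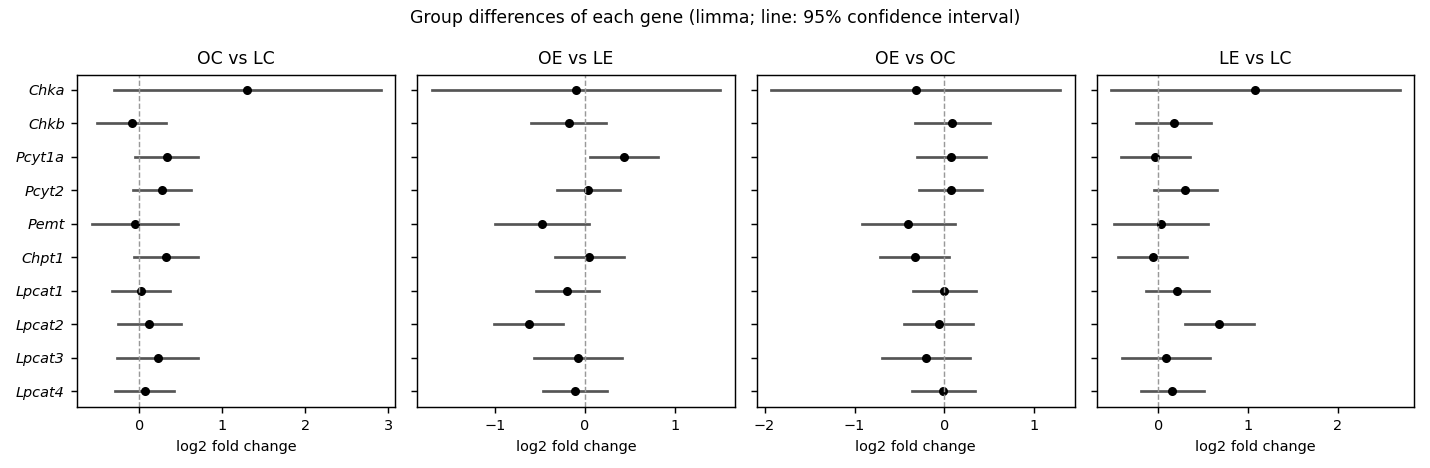
Log2 fold change (x axis) of each gene (rows) in OC vs. LC, OE vs. LE, OE vs. OC and LE vs. LC from limma, with lines for the 95% confidence interval. The intervals of Chka are the widest, and the intervals that leave out 0 are those of Lpcat2 in OE vs. LE and LE vs. LC and of Pcyt1a in OE vs. LE.

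Over the whole set and without a clock gene in the model, 0 of the 10 members passed an adjusted p of 0.05 in any comparison of limma. In OC vs. LC, where 2.59% of all transcripts were called, 0 members were below an unadjusted p of 0.05, against 12.8% of all transcripts, and the members' median log2 fold change was 0.17 against −0.0038 for all transcripts. In OE vs. LE, with 2.11% called, 2 members were below it (Lpcat2 and Pcyt1a), as were 12.4% of all transcripts. Pooled over both diets, with 6.52% called, 1 member was below it (Pcyt1a), as were 17.8% of all transcripts. The counts of members were thus near or under these shares. For ecdysterone, 0% of transcripts were called in LE vs. LC, in OE vs. OC, pooled over both genotypes and in the interaction, and Lpcat2 was the 1 member below an unadjusted p of 0.05 in LE vs. LC, in the pooled comparison and in the interaction. The shares of all transcripts below it were 3.51%, 4.89% and 3.93%. In OE vs. OC it was 0 members and 5.7% of transcripts. At the study's own threshold, an unadjusted p and a minimum fold change of 1.3, the methods' t-test called Lpcat2 in OE vs. LE, where it called 8.04% of transcripts, and in LE vs. LC, where it called 1.85%. It called 0 members in OC vs. LC (8.68% of transcripts) and in OE vs. OC (3.08%). After Benjamini-Hochberg adjustment it called 0 members in each, with 1.1% of transcripts in OC vs. LC, 0.578% in OE vs. LE and 0% in the other comparisons.

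Of 70 measured genes around this pathway, in 6 lists, 3 passed the test in OC vs. LC, or 4.29% against 2.59% of all transcripts. The lists were drawn up with earlier results of these data known, and the paper already names Pctp and Agpat3 as upregulated. Shares of these lists are therefore a description and do not show an enrichment. Pctp, a carrier protein of phosphatidylcholine in the cytosol, averaged 11.34 ± 0.28 in OC and 10.14 ± 0.56 in LC livers (SD, n = 6 each), higher by 1.21 (SE 0.23, limma adjusted p = 0.00171). Agpat3, an acyltransferase of lysophosphatidic acid, averaged 12.49 ± 0.26 in OC and 11.14 ± 0.39 in LC livers (difference 1.34, SE 0.25, adjusted p = 0.00118), and it was also higher in OE vs. LE (1.03, SE 0.25, adjusted p = 0.02). Cept1, which joins either CDP-choline or CDP-ethanolamine to diacylglycerol, was lower, with 12.76 ± 0.15 in OC and 13.29 ± 0.22 in LC livers (−0.53, SE 0.14, adjusted p = 0.0404). In Agpat3 and Cept1 the OC and LC rats did not overlap.

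By list, Cept1 was the 1 of 10 measured genes of phosphatidylcholine and phosphatidylethanolamine synthesis past the threshold in OC vs. LC. Agpat3 was the 1 of 14 genes in a list made up mostly of other acyltransferases, and Pctp the 1 of 10 genes of transfer and export. Of 12 genes of choline uptake and oxidation, 9 of methyl donor supply and 15 of phosphatidylcholine breakdown, 0 passed in OC vs. LC. The list medians lay between −0.08 and 0.12, against −0.0038 for all transcripts. Pooled over both diets, 12 of the 70 genes passed, or 17.1% against 6.52% of all transcripts, again in lists chosen with earlier results known. The choline transporter-like gene Slc44a4 was lower in obese livers (−0.55, SE 0.14, adjusted p = 0.0112), with means of 4.83 in OE, 5.32 in OC, 5.70 in LE and 5.55 in LC livers, which is in the dim range. In the breakdown list the secreted phospholipase Pla2g12a was lower (−0.79, SE 0.17, adjusted p = 0.00297) and the lysophospholipase Lypla1 higher (0.44, SE 0.10, adjusted p = 0.00463).

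A further 6 list genes passed in the pooled comparison and are named after their values were seen. Lpin2, a phosphatidate phosphatase, was higher in obese livers (0.71, SE 0.17, adjusted p = 0.00743), as were Mttp, which loads lipid onto apolipoprotein B (0.63, SE 0.14, adjusted p = 0.00371), and Tm6sf2, which takes part in lipoprotein secretion (0.56, SE 0.15, adjusted p = 0.0149). Abcb4, the pump that moves phosphatidylcholine into bile, was lower (−0.76, SE 0.23, adjusted p = 0.0396), as were the acyltransferases Gpat4 (−0.63, SE 0.18, adjusted p = 0.0329) and Mboat1 (−0.59, SE 0.15, adjusted p = 0.011). In methyl donor supply, 0 of 9 genes passed in the pooled comparison, but Cbs, which draws homocysteine out of the methyl cycle, rose with Arntl (slope 0.29, SE 0.05, adjusted p = 0.00307). Gpat4 and Pla2g12a fell with it (slopes −0.24 and −0.22), and these were the 3 genes of the 6 lists that passed the test of the slope. That is 4.29% of the 70 against 1.2% of all transcripts, and this share has the same limit.

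Array medians of the normalised signals lay between 6.51 and 6.61. Normalisation brings the arrays together, so these medians cannot show whether an array stood apart in brightness before it. The 10 hepatocyte markers, such as Alb and Ttr, were bright in every liver, with mean log2 signals of 18.60 to 18.80. Of these 10, 1 passed in OC vs. LC (Apoa1, higher in OC). Apoa1 and Cps1 passed in OE vs. LE (2.11% of all transcripts) and pooled over both diets (6.52%), 1 higher and 1 lower. Some markers of other cells also moved with genotype. In OC vs. LC, where 2.59% of all transcripts passed, 5 of 8 red blood cell, 3 of 9 stellate cell and 1 of 10 macrophage genes were higher. Of 7 neutrophil, 6 endothelial cell and 6 cholangiocyte genes, 0 passed. The red blood cell genes had mean log2 signals of 10.00 to 10.70 in OE and 10.14 to 10.80 in OC against 9.46 to 10.09 in LE and 9.38 to 10.10 in LC livers. The part of these cell types in the genotype values of Chka was not tested. With Arntl, 0 of 8 red blood cell and 0 of 9 stellate cell genes passed the test of the slope, as did 1.2% of all transcripts. In lists this short a count of 0 is near that share and does not show whether these cells went with Arntl.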

How the data were processed

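Livers of 24 rats (6 a group) were measured on 1-colour Clariom S arrays. Per the labels and the study's methods, the authors background-corrected, normalised and summarised probe intensities with SST-RMA in Expression Console (version 1.4 in the submitters' processing notes) and deposited log2 signals, 1 value per transcript and array. A second deposited table held the same log2 values rounded, differing by at most 0.005. Columns of the authors' group means, fold changes and p-values were not used. The number of arrays limits the precision.

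All 23188 transcripts were fitted in limma 3.58.1 (R 4.3.3) with 4 group means, and p-values were adjusted by Benjamini-Hochberg over all transcripts, with a threshold of 0.05. The methods' t-test was an alternative. Slopes on Nr1d1 and Arntl were fitted beside the group means, over 23187 transcripts. Correlations used group-centred signals with 100000 permutations within groups, and within groups all 720 pairings. Replicates are separate rats.

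Members, lists and the named genes (all members, Nr1d1, Arntl, Dbp, Per2, up to 5 list genes past the threshold and the 5 transcripts most and least like Chka) were chosen with earlier results of these data known. The Arntl, Npas2 and Dbp covariates, slopes by genotype and fits without 4 rats were added after seeing the data. Promoters are from RefSeq (GRCr8), and 9 of 10 members were matched to it by accession and all 10 by symbol. The fits were tested on simulated data.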

Additional observations from a re-analysis of the deposited data

Results flagged for a closer look

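Among 48 sets of 6 rats (12 genes in 4 groups), 2 held a rat far from the other 5, and chance alone flags about 1 in 20. Chpt1 in OE replicate 24 read 15.8868, the lowest of its group, with a gap to the next rat of 0.636 of the group's range, just past the critical value. Lpcat2 in OC replicate 13 read 4.3834, also the lowest of its group, with a gap of 0.726 of the range. Neither rat was marked in this way for Chka or Arntl.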

How the results depend on the processing

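The group comparisons were repeated with median centring, quantile normalisation, array weights, eBayes with trend and robust, and dim transcripts left out. Further settings were limma on 2 groups only, the methods' t-test, the rounded table, a clock gene as a covariate, and leaving out the 4 rats low in Nr1d1. In another setting, probe sets of the same gene were averaged, but each member had only 1, so its signal stayed the same. The rounded table differed by at most 0.005. Averaging and rounding could hardly move a value, so the values kept under them say little about robustness. Apart from the leaving out of single rats, 697 values kept their direction and their side of the threshold, 26 turned their sign, 6 counts of members moved and 3 values crossed the threshold without a change of sign (Chka in OC vs. LC with either covariate, as given above, and the slope of Pcyt2 on Arntl without the 4 rats). The count of members past the threshold was 0 as reported and became 1 (Chka) in OC vs. LC with Nr1d1 or Arntl as a covariate, 1 (Chka) in OE vs. LE with Arntl and 1 (Chka) pooled over both diets with either. For the slope on Arntl it was 2 as reported and 1 without the 4 rats. With each rat left out in turn it ranged from 0 to 1 in OE vs. LE (Lpcat2), from 0 to 1 pooled over both diets (Pcyt1a) and from 1 to 2 for the slope on Arntl (Pcyt2), and stayed at 0 or 1 as reported elsewhere. The correlation of Chka with Arntl then ranged from 0.95 to 0.965.

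Several small log2 fold changes turned their sign, none of them past the threshold as reported. Without the 4 rats, OC vs. LC gave Chkb 0.066, Pemt 0.13 and Lpcat1 −0.11, OE vs. LE gave Chka 0.50 and Lpcat4 0.011, and LE vs. LC gave Pcyt1a 0.062 and Chpt1 0.16. The slopes without them were −0.051 for Lpcat2 and 0.089 for Lpcat4 on Nr1d1 and −0.019 for Lpcat4 on Arntl. With Nr1d1 as a covariate, Lpcat1 was −0.028 in OC vs. LC, Chka 1.04 and Lpcat3 0.043 in OE vs. LE, Pemt −0.0015 in LE vs. LC, and Chka 0.090 and Lpcat4 0.0062 in OE vs. OC. With Arntl, Chka was 1.398, which also crossed the threshold, and Lpcat3 0.14 in OE vs. LE, Pcyt1a 0.034, Pemt −0.080 and Lpcat3 −0.027 in LE vs. LC, and Chka 0.43 and Lpcat4 0.0012 in OE vs. OC. Array weights gave Chka 0.053 in OE vs. LE and Pcyt1a 0.016 in LE vs. LC, and quantile normalisation gave Lpcat1 0.0056 in OE vs. OC. The cause was not tested.

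No paired analysis was possible because the rats are numbered through all groups, so that no number is shared. The hour of killing and the cage of each rat are not given in the sources used here, and their part in the Chka and Arntl values was not tested. Lpcat1, Lpcat2 and Slc44a4 gave dim signals near those of smell and taste receptor genes.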
